A study of Mus musculus with 6 samples.

Results

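Otx2, Pou3f1 and Gbx2 are transcription factor genes of the early mouse embryo, and they are followed here through the 2 domains of 3 individual ETX-embryos. They were taken by symbol, 3 of the 12826 genes in the deposited table, and all 3 passed the filter on low values that left 10914 genes. They were brought together as factors of the anterior epiblast, and they were chosen with their levels in these libraries already known. Their levels and their posterior minus anterior differences are therefore given as a description, with no test. Gbx2 was listed at 0 in every library labelled anterior, which goes against the name under which the genes were grouped, so they are called by their symbols.

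ETX-embryos are embryo-like structures that form when mouse embryonic (ESC), trophoblast (TSC) and extraembryonic endoderm (XEN) stem cells aggregate in culture. Those sampled here carried a GFP reporter of T/Brachyury, a gene of the primitive streak, received no treatment and were grown in sequential IVC media. The TSC part had been cut off and the ESC part split lengthwise, and the piece with GFP was taken as prospective posterior and the one without it as prospective anterior. Each piece gave 1 Smart-seq2 library (18 preamplification cycles), so that there are 3 anterior and 3 posterior libraries from the individuals A, B and C. The stage of the structures in culture and the clone of the reporter line are not given in the sources used here.

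Otx2 encodes a homeodomain protein that is present across the epiblast before gastrulation, in the anterior visceral endoderm and later in the forebrain and midbrain, and the head does not form without it. When pluripotent cells leave the naive state, Otx2 binds enhancers of the primed state together with Oct4, and Pou3f1 (Oct6), a POU-domain factor, comes on in the epiblast and in the early neural plate. Gbx2, a homeodomain repressor, is known in embryonic stem cells as a target of LIF and STAT3 signalling that supports the naive state, and in the embryo as the posterior partner of Otx2: each represses the other, which sets the midbrain-hindbrain boundary.

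On mouse build GRCm38 (mm10, the build in the submitters' processing notes) the GENCODE M21 annotation places Otx2 (ENSMUSG00000021848) on the minus strand of chromosome 14 from 48657677 to 48673819. Pou3f1 (ENSMUSG00000090125) lies on the plus strand of chromosome 4 from 124656807 to 124660655, with 1 annotated transcript. Gbx2 (ENSMUSG00000034486) lies on the minus strand of chromosome 1 from 89927956 to 89931179. The antisense gene Otx2os1 overlaps Otx2 exons over 154 bases (48673666 to 48673819), and Smart-seq2 does not mark the strand, so reads from that stretch could belong to either. Otx2os1 was itself recovered at 7 reads in anterior C, 1 read in posterior B and 0 reads in the other libraries.

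The RefSeq promoter table (build GRCm38.p6) held entries for 2 of the 3 genes, Otx2 and Gbx2. The bases just before a start site are shown because the levels of Gbx2 and Otx2 followed different patterns over the libraries. The Otx2 stretch lies before 1 of its 4 tabulated starts (chr14:48667645-48667894, minus strand), and the Gbx2 stretch before its only one (chr1:89931180-89931426, minus strand). Neither holds a base that GENCODE counts to an exon of its gene. Capitals mark a match to a searched motif.
Otx2: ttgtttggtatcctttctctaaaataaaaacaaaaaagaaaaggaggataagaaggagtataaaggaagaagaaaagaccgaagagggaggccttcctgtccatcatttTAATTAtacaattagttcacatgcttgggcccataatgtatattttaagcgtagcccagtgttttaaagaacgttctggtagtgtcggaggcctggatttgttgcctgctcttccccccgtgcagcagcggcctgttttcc
Gbx2: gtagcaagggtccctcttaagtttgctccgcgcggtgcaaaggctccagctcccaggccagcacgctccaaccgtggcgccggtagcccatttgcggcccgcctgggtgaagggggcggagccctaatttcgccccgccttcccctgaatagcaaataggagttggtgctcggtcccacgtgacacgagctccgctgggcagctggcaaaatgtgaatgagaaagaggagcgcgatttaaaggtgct
Both strands were searched for TAATCC (the site type bound by OTX homeodomains), ATGCAAAT (the octamer of POU factors), TAATTA (a homeodomain core) and CTTTGA (a TCF/LEF core), none of which overlapped another here. The Otx2 stretch held 1 match, to TAATTA, and the Gbx2 stretch held 0. Over the 32851 windows of 250 bases before tabulated starts, 6.25% held TAATCC, 1.60% ATGCAAAT, 4.84% TAATTA and 13.8% CTTTGA. The stretches also differed in composition: the Gbx2 stretch had 61.1% G or C and 18 CpG dinucleotides, and the Otx2 stretch 42% and 6, against medians of 52.4% and 6 over all windows. The Otx2 stretch shown, before start 1, is the longest of that gene and lies inside its annotated span. The shorter Otx2 stretches before starts 2 and 4 (114 and 112 bases) had 51.8% and 47.3% G or C. They held 0 motif matches, and start 3 had 0 bases outside exons.

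Levels are given on the log2(FPKM + 1) scale, or in FPKM (fragments per kilobase of a transcript, relative to all fragments mapped) where that is named. Between 9335 and 12141 genes were above 0 per library, and with anterior A set to 1 the relative depth was 1.41 and 1.43 in anterior B and C and 1.56 to 2.82 in the posterior libraries, so depth and domain run together. The lowest Spearman correlation across genes of any pair of libraries, 0.57, was one with anterior A. The pairs with anterior A reached at most 0.66, against up to 0.87 between others, whose lowest value was not taken. T, whose reporter chose the pieces, followed the labels in embryos A and B and went against them in embryo C. From anterior A and B 0 reads of T were recovered, and from posterior A and B 60 and 239 reads. The library labelled anterior C held 330 reads of T, the most of any, and the one labelled posterior C held 0. In embryo C, then, T does not bear out the labels, and mean differences are given with and without that embryo.

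Otx2 had the highest FPKM of the 3 genes in all 6 libraries (in posterior C by less than counting error over Gbx2), and the embryos differed in which piece held more of it. In log2(FPKM + 1) its level was 0.84, 4.86 and 7.29 in the anterior pieces of A, B and C, against 5.69, 4.89 and 4.15 in their posterior pieces. Anterior C was the highest library and anterior A the lowest, so the posterior values lay inside the anterior range and the groups overlapped. In FPKM the same levels were 0.792, 28.0 and 155.9 in the anterior pieces, against 50.5, 28.7 and 16.7 in the posterior pieces. They rest on 5, 249 and 1407 anterior and 700, 512 and 165 posterior reads, the smallest whole numbers that the steps in the deposited values allow. The 2 pieces of embryo B were alike within counting error, with 95% Poisson intervals of 24.6 to 31.7 FPKM (anterior) and 26.3 to 31.3 FPKM (posterior). These intervals cover counting error alone, since reads without molecular identifiers are not independent molecules. Posterior C, at 14.3 to 19.5 FPKM, lay below both, and posterior A (46.8 to 54.3 FPKM) and anterior C (148 to 164 FPKM) lay above them, so that the pieces of embryo B were the only neighbours in the order whose intervals overlapped. Within its own library Otx2 ranked at percentile 95.1 of all tabulated genes in anterior C and at percentile 37.8 in anterior A, and at percentiles 66.3 to 84.9 elsewhere.

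The posterior minus anterior difference of Otx2 was 4.84, 0.04 and -3.15 in embryos A, B and C. One structure had more Otx2 in the posterior piece, another in the anterior piece, and in the remaining structure the pieces did not separate. The mean difference was 0.58 ± 4.02 (SD, n = 3 embryos), with a mean level of 4.33 ± 3.26 over the anterior pieces and of 4.91 ± 0.77 over the posterior pieces. A mean this far inside its spread has no direction: it was 2.44 without embryo C and -1.55 without embryo A. With anterior A alone left out, the mean of the posterior pieces minus that of anterior B and C, which is not paired by embryo, was -1.17.

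Pou3f1 was lower than Otx2 in every library, in anterior A within overlapping intervals, and took nearly the same course. Its level in log2(FPKM + 1) was 0.16, 1.44 and 3.85 in the anterior pieces of A, B and C, against 4.09, 1.98 and 0.62 in their posterior pieces. It was high in posterior A and anterior C and near the bottom of the range in anterior A and posterior C, and the groups overlapped. In FPKM this is 0.121, 1.71 and 13.4 in the anterior pieces, against 16.1, 2.95 and 0.541 in the posterior pieces, from 1, 20, 159, 292, 69 and 7 reads in that order. The single read in anterior A and the 7 reads in posterior C leave their intervals wide (0.00306 to 0.673 and 0.218 to 1.12 FPKM), and those intervals overlap. The intervals of the 2 pieces of embryo B (1.05 to 2.65 and 2.30 to 3.73 FPKM) overlap too. The intervals of anterior C (11.4 to 15.7 FPKM) and posterior A (14.3 to 18.0 FPKM), the highest libraries, also meet, and that of posterior C just reaches that of anterior B.

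The posterior minus anterior difference of Pou3f1 was 3.93, 0.54 and -3.23 in embryos A, B and C, with a mean of 0.41 ± 3.58 (SD, n = 3 embryos). The means were 1.82 ± 1.87 in the anterior and 2.23 ± 1.75 in the posterior pieces. Without embryo C the mean difference was 2.23, and without embryo A it was -1.34. Unpaired and without anterior A alone, it was -0.41.

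Gbx2 set the pieces apart in all 3 structures. It was recovered at 0 reads in anterior A, B and C, against 225, 215 and 146 reads in posterior A, B and C. The posterior levels were 18.1, 13.4 and 16.5 FPKM, or 4.25, 3.85 and 4.13 in log2(FPKM + 1), and no posterior value overlapped an anterior one. The posterior values were close to each other: their 95% Poisson intervals were 15.8 to 20.6, 11.7 to 15.3 and 13.9 to 19.4 FPKM, of which those of A and C overlap, as do those of B and C. A listed 0 is compatible with up to 3 reads, which are worth 0.529, 0.375 and 0.370 FPKM in anterior A, B and C. Against that floor per library, and with the posterior value as measured, Gbx2 was at least 34.1-fold higher in the posterior piece of embryo A, at least 35.8-fold in B and at least 44.5-fold in C. The mean difference was 4.08 ± 0.21 (SD, n = 3 embryos) in log2(FPKM + 1), and it was 4.05 without embryo C. Unpaired and without anterior A alone, it was 4.08. Gbx2 thus stood higher in the posterior piece also in embryo C, where T did not.

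**Figure D1:**
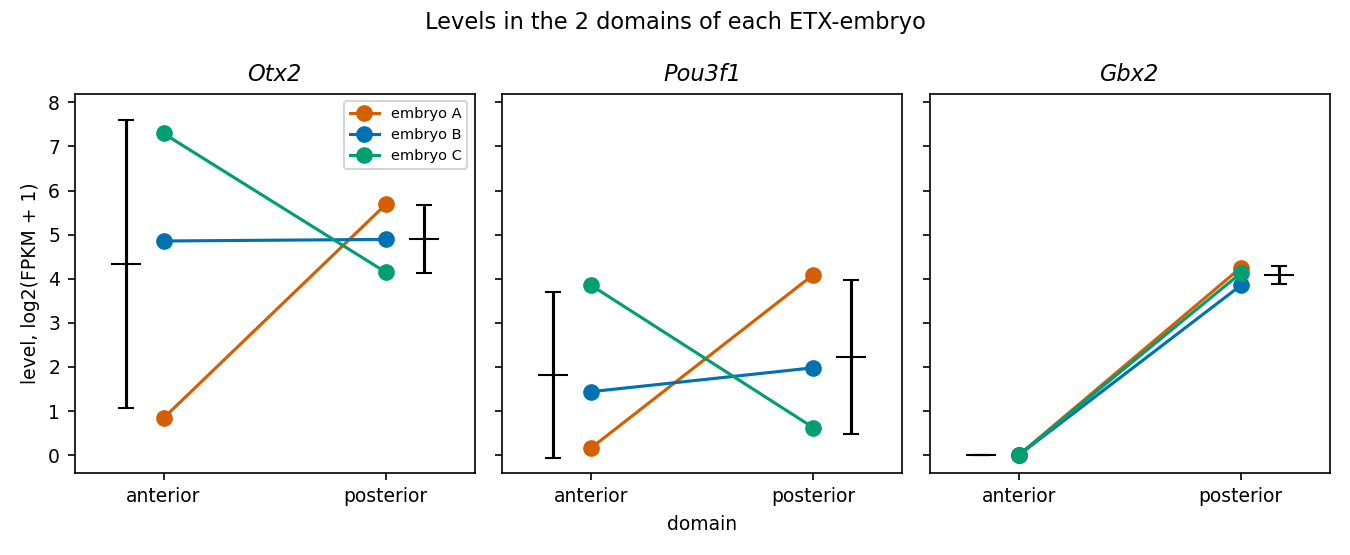
Level in log2(FPKM + 1) of Otx2, Pou3f1 and Gbx2 in the anterior and posterior piece of embryos A, B and C. Points joined by a line are the 2 pieces of 1 embryo, and black bars give the mean ± SD of 3 libraries. The lines of Otx2 and Pou3f1 cross, from 0.84 up to 5.69 for Otx2 in embryo A and from 7.29 down to 4.15 in embryo C, while those of Gbx2 run together from 0 to between 3.85 and 4.25.

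The count of genes with such patterns gives the background for these values. All 3 posterior values lay above all 3 anterior values in 12.3% of the 10914 genes and below them in 3.77%, and 1.03% (112 genes) were, like Gbx2, without signal in any anterior library and with signal in every posterior one. The first pair of shares depends on the scale: with each library centred on its median they were 7.14% above and 7.9% below, so the excess of posterior genes was not there. Otx2 and Pou3f1 were higher by more than 1 in log2 in the posterior piece of embryo A and in the anterior piece of embryo C, a reversal that 11% of genes shared. Taking each embryo alone, 48.4% of genes were higher by more than 1 in the posterior and 15.3% in the anterior piece of embryo A. In embryo B these shares were 22.5% and 19.3%, and in embryo C 34.7% and 21.8%. In a limma fit over all genes, with the embryo as a block, 0% passed an adjusted p of 0.05 (0 genes, smallest adjusted p 0.211), while an unadjusted p under 0.05 was reached by 7.24% (790 genes) with the posterior pieces higher and by 0.788% (86 genes) with the anterior ones higher. With centred libraries these became 3.93% and 2.72%. The shares are printed as background, since the 3 genes were chosen on the same values.

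Among all genes the differences of Otx2 and Pou3f1 moved from one tail to the other, and that of Gbx2 did not. The Otx2 difference lay at percentiles 96.8, 50.5 and 5.88 of all genes in embryos A, B and C. The Pou3f1 difference lay at percentiles 93.0, 66.3 and 5.58. The Gbx2 difference lay at 94.6, 99.1 and 94.5. The median difference over all genes was 0.91, 0.02 and 0.17 in the same embryos, so that in embryo A genes in general stood higher in the posterior library. With each library centred on its median, Otx2 differed by 3.86, 0.11 and -3.69 in embryos A, B and C, Pou3f1 by 2.94, 0.61 and -3.77, and Gbx2 by 3.27, 3.92 and 3.58. Signs in each embryo were the same as before for all 3 genes under centring; under quantile normalization the small Otx2 difference in embryo B became -0.02.

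**Figure D2:**
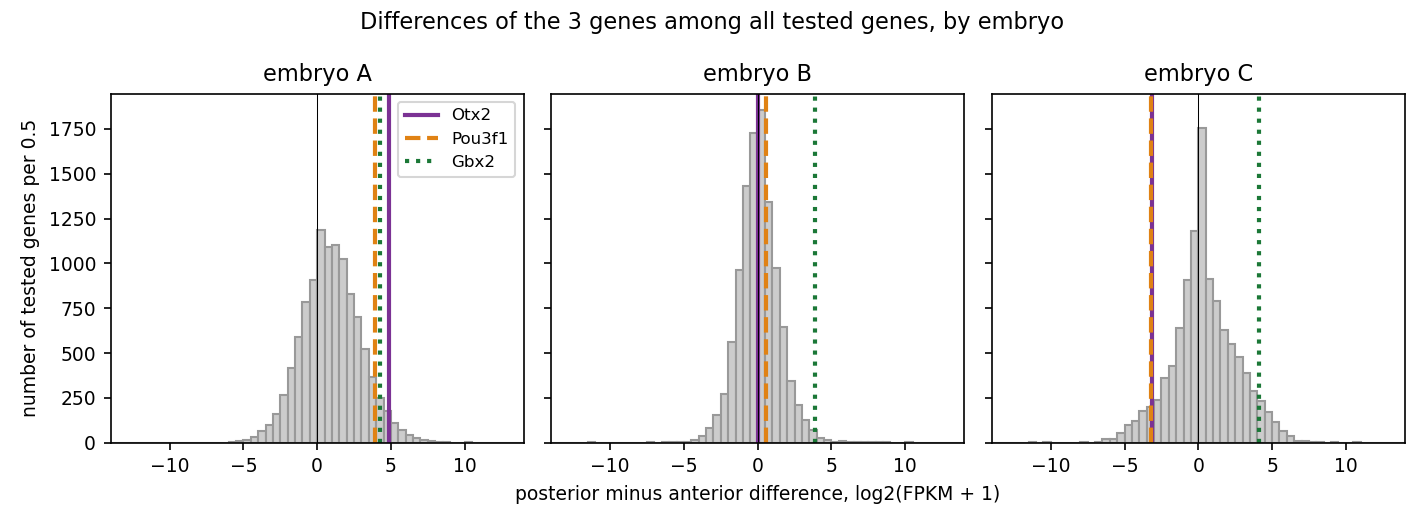
Number of tested genes (grey bars, bins of 0.5) by posterior minus anterior difference in log2(FPKM + 1), in embryos A, B and C, with vertical lines at Otx2 (solid), Pou3f1 (dashed) and Gbx2 (dotted). In embryo C Otx2 (-3.15) and Pou3f1 (-3.23) lie in the left tail and Gbx2 (4.13) in the right one.

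Ordered by level, the libraries fell in nearly the same sequence for Otx2 and Pou3f1. From low to high it ran anterior A, posterior C, anterior B, posterior B, posterior A and anterior C for Otx2. For Pou3f1 it ran the same way with the last pair exchanged. Over the 6 libraries Pearson's r of their levels was 0.84 and Spearman's rho 0.94, given as a description: the points share embryos and depth. Against Gbx2, Otx2 had r = 0.15 and rho = 0.15, and Pou3f1 had r = 0.15 and rho = 0.39. The proportion of Otx2 to Pou3f1 was not fixed, with FPKM ratios of 6.56, 16.3 and 11.6 in the anterior pieces of A, B and C, against 3.14, 9.73 and 30.9 in their posterior pieces. The ratio in anterior A rests on 1 Pou3f1 read. In the posterior pieces, the only ones with reads of both genes, Otx2 was 2.79, 2.14 and 1.01 times Gbx2 in FPKM in A, B and C.

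The pieces were sequenced in bulk, so a lower level can come from fewer cells of a type or from less RNA per cell, and these cannot be told apart. Markers of the epiblast and of endoderm are set beside the 3 genes for that reason, each as the mean of a list minus the library median in log2(FPKM + 1). The formative and primed epiblast list stood at -0.62, -0.76 and 0.55 in the anterior pieces of A, B and C, against 1.24, 0.81 and 1.27 in their posterior pieces. Of its 26 tested genes, 20, 21 and 23 had a level above 0 in the anterior pieces, and 26 in each posterior library. The summed level of the list was 253 to 1763 FPKM over the anterior libraries, against 939 to 2000 FPKM over the posterior ones. Anterior C, the library with the most Otx2, was thus the highest anterior library on this list by mean and by sum. Anterior B stood beside anterior A in the mean over the library median (-0.76 and -0.62). Its summed level was higher, at 825 FPKM against 253 FPKM, so the anterior sums ran in the same order as Otx2. The sum leans on 1 gene, Sall4, the highest member in anterior C (10.19 in log2(FPKM + 1)) and in anterior B (8.71). The posterior sums did not keep the order of Otx2. Posterior A was highest in both, but posterior C summed to 1937 FPKM, above posterior B (939 FPKM) and anterior C, with the lowest posterior Otx2. A link between Otx2 and epiblast content was not tested.

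The mean level of endoderm markers was lowest in anterior C, where Otx2 was highest. The visceral endoderm list stood at 1.53, 1.28 and -1.63 in the anterior pieces of A, B and C, against 0.01, 1.04 and 0.44 in their posterior pieces. Of its 22 tested genes, 18, 20 and 8 had a level above 0 in the anterior pieces, against 19, 22 and 17 in the posterior libraries. The list summed to 378 to 2101 FPKM over the anterior libraries, against 1224 to 4279 FPKM over the posterior ones. Ttr and Rbp4, which encode carrier proteins, and the endoderm factors Gata4 and Sox17 were at 0 in anterior C, and Rbp4 also in posterior C. Other members were not low there. Lrp2, an uptake receptor, was higher in the anterior pieces, at 6.17, 6.51 and 6.75 in A, B and C against 3.06, 3.33 and 4.91, and Slc16a1, a lactate transporter, was at 7.86 in anterior C. Apom, an apolipoprotein, was at 0 in the anterior pieces but reached 4.73, 5.82 and 2.71 in the posterior ones, and Spink3, a protease inhibitor, was at 8.93, 8.25 and 3.59 against 9.56, 11.68 and 9.31. The XEN and parietal endoderm list stood at 2.17, 2.11 and -0.54 in the anterior pieces, against 0.55, 0.74 and 1.47 in the posterior pieces. Its 25 genes summed to 736 to 3364 FPKM over the anterior libraries, against 1028 to 2024 FPKM over the posterior ones, and Gata4 and Sox17 are on it too. The part of cell makeup in the low Otx2 and Pou3f1 of anterior A, or in the absence of Gbx2 reads from the anterior pieces, was not tested.

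The trophoblast list, for the tissue that had been cut away, stood at -0.82 to -0.19 in the anterior and -0.68 to 0.20 in the posterior pieces. Of its 21 tested genes, 15 to 16 were above 0 in an anterior library and 16 to 21 in a posterior one, with summed levels of 426 to 611 FPKM and 406 to 1472 FPKM. Of the 21 genes 13 were higher on average in the posterior and 8 in the anterior pieces. In 3 the posterior values all lay above the anterior ones and in 1 below, beside 12.3% and 3.77% of all genes. Centred, these counts were 3 and 3, beside 7.14% and 7.9%. Tfap2c, Eomes and Ly6a had the smallest unadjusted limma p-values of the list, each with a higher mean in the posterior pieces. Eomes is also on the primitive streak list. Of the 8 genes higher on average in the anterior pieces, Dlx3 and Gata3 had the largest mean differences, at -1.84 and -1.48. Dlx3 was the 1 gene whose posterior values all lay below the anterior ones as deposited. Ly6a was at 0.63, 0 and 0 in the anterior pieces, against 4.92, 7.82 and 0 in the posterior pieces, and Elf5, a factor of trophoblast stem cells, was above 0 in posterior A and B alone, at 0.57 and 3.18.

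**Figure D3:**
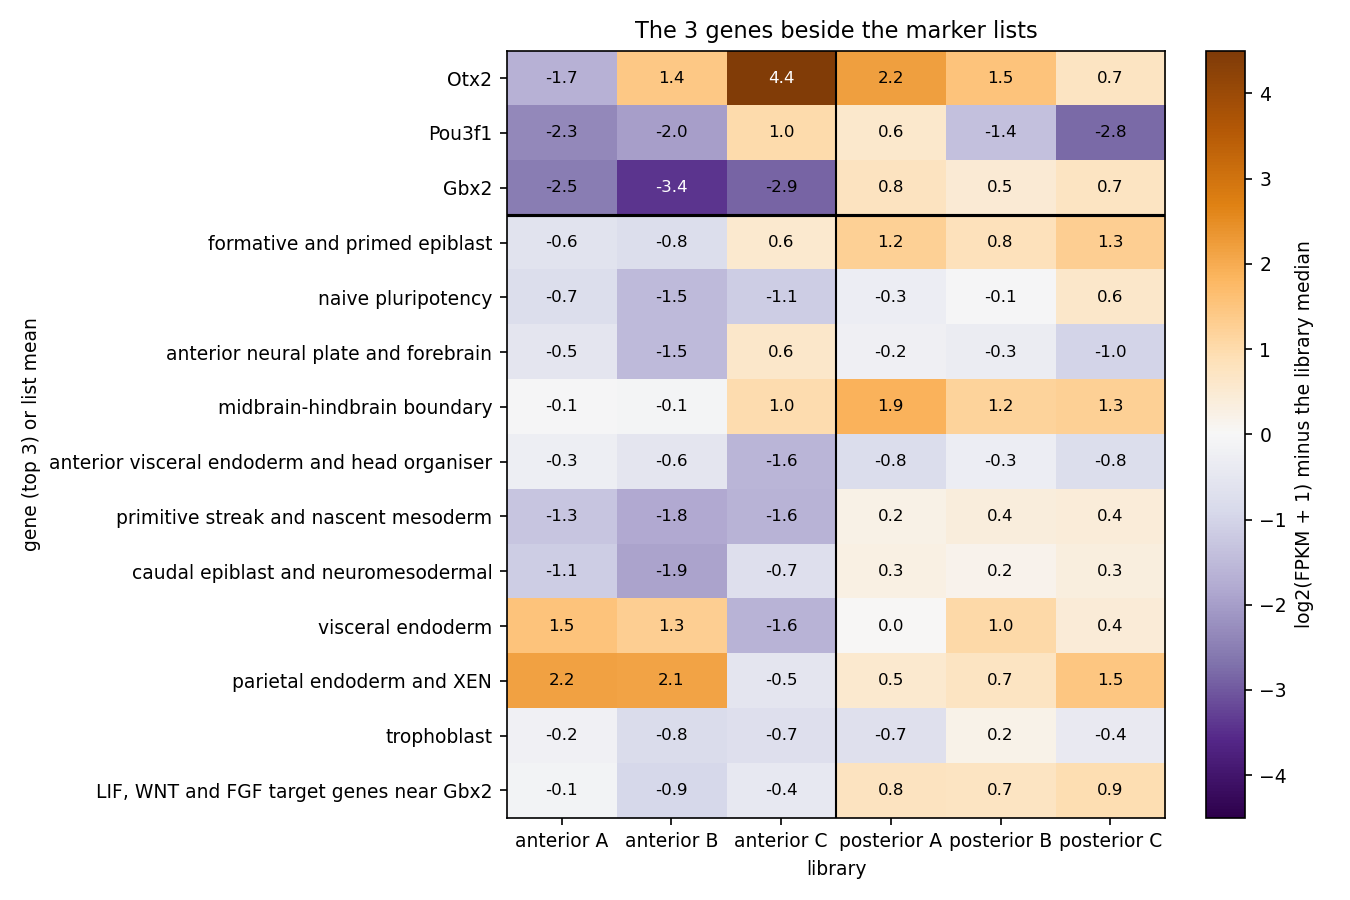
Level of Otx2, Pou3f1 and Gbx2 (top 3 rows) and mean level of 11 gene lists (other rows) in each of the 6 libraries, as log2(FPKM + 1) minus the library median. Purple is below and orange above the median. Otx2 is at 4.43 in anterior C, where visceral endoderm is at -1.63.

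Genes known to act with or against the 3 factors, and markers of tissues and cell types, were followed through 12 lists, which share some members. Over the lists 157 distinct genes were tested, and 0 passed the adjusted limma threshold in either direction. At an unadjusted p under 0.05, 38 were higher in the posterior and 4 in the anterior pieces, beside 7.24% and 0.788% of all genes. With centred libraries the counts were 27 and 11, beside 3.93% and 2.72%. The values below are therefore described by count and by median, beside a median of 0.43 over all genes, which became -0.06 when each library was centred on its median. Centred medians and counts are given too. The share of all genes that were higher on average in the posterior pieces was not counted. Since the median over all genes as deposited is positive, a list count that leans to the posterior pieces is not by itself particular to that list.

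The formative and primed epiblast list, the state in which Otx2 and Pou3f1 are known to work, had a median difference of 1.62 (1.13 centred), with 23 of 26 genes higher on average in the posterior pieces. In 9 of 26 genes the posterior values all lay above the anterior ones and in 0 below, beside 12.3% and 3.77% of all genes. Centred, these counts were 5 and 1, beside 7.14% and 7.9%. Its medians in embryos A, B and C were 2.94, 1.34 and 0.80, so the list did not turn round in embryo C as Otx2 did. Etv5, an ETS factor downstream of FGF signals, was at 0.13, 1.55 and 0.89 in the anterior pieces of A, B and C, against 6.42, 5.68 and 6.47 in their posterior pieces. Dppa4, a chromatin protein of pluripotent cells, was at 0 in the anterior pieces, as was Gbx2, and at 2.97, 4.64 and 5.26 in the posterior ones.

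The naive pluripotency list, with which Gbx2 is known to work in embryonic stem cells, had a median of 1.83 (1.34 centred) over 15 genes, 13 of them higher on average in the posterior pieces. In 8 of the 15 the posterior values all lay above the anterior ones and in 1 below, beside 12.3% and 3.77% of all genes. Centred, these counts were 6 and 1, beside 7.14% and 7.9%. Nanog, a core factor of pluripotency, was at 4.0, 3.12 and 3.58 in the anterior pieces of A, B and C, against 6.81, 6.15 and 5.21 in their posterior pieces. Zfp42 (Rex1), a marker of the naive state, was at 0, 0.38 and 0 and at 1.11, 3.55 and 5.55. Nanog was thus detected in the anterior pieces that had no Gbx2 read.

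Genes listed as targets of the LIF, WNT and FGF pathways had a median of 1.80 (1.31 centred) over 18 genes. Of the 18, 15 were higher on average in the posterior pieces. The posterior values of 9 of the 18 all lay above the anterior ones and those of 1 below, beside 12.3% and 3.77% of all genes. Centred, these counts were 7 and 1, beside 7.14% and 7.9%. Axin2, a feedback inhibitor of WNT signalling, shared the pattern of Gbx2: it was at 0 in the anterior pieces of A, B and C, against 4.03, 3.56 and 3.31 in their posterior pieces. Sp5, another WNT target, was likewise at 0 in the anterior pieces and at 4.83, 3.92 and 4.91 in the posterior ones. These genes had adjusted limma p-values of 0.52 and 0.52.

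Markers of the anterior neural plate and forebrain, the tissue that Otx2 is best known for, were split. Their median was 0.45 (-0.04 centred) over 19 genes, close to that of all genes, with 12 higher on average in the posterior and 7 in the anterior pieces. By embryo the medians were 1.27 in A, 1.31 in B and -0.53 in C. The mean of the list over the library median was highest in anterior C (0.63) and lowest in anterior B (-1.51). Dlx5, a homeobox gene of the anterior neural border, was higher in the anterior piece of all 3 embryos, at 4.73, 5.0 and 7.23 against 2.28, 3.76 and 2.45, with an unadjusted limma p of 0.0137 and an adjusted one of 0.551. Crabp1, a retinoic acid binding protein, was at 7.69, 5.87 and 0.53 against 2.42, 3.11 and 0. Crabp1 and Otx2 stood at opposite ends in the anterior pieces: Crabp1 was highest in anterior A, where Otx2 was lowest.

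At the midbrain-hindbrain boundary Otx2 and Gbx2 meet, and genes of that list had a median of 1.75 (1.26 centred) over 10 tested genes, of which 8 were higher on average in the posterior pieces. In 5 the posterior values all lay above the anterior ones and in 1 below, beside 12.3% and 3.77% of all genes. Centred, these counts were 3 and 1, beside 7.14% and 7.9%. Fgf8, the signal made at that boundary and also in the streak, was at 0, 2.29 and 0 in the anterior pieces of A, B and C, against 5.47, 2.61 and 5.88 in their posterior pieces. Hes1, a repressor of neural differentiation, was at 1.79, 4.73 and 4.42 against 7.85, 7.31 and 4.99. En1, En2, Pax2, Pax5 and Wnt1, which define the boundary, are not analysed here.

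The list of anterior visceral endoderm and head organiser genes, counted without Otx2, had a median of 0.46 (-0.02 centred) over 16 genes, 10 of them higher on average in the posterior pieces. In 4 the posterior values all lay above the anterior ones and in 0 below, beside 12.3% and 3.77% of all genes. Centred, these counts were 3 and 2, beside 7.14% and 7.9%. Its members with the smallest p-values were the Nodal pathway genes Lefty1 and Nodal and the signal Fgf8. Nodal and Fgf8 are also on the primitive streak list. Lefty1, which encodes an inhibitor of Nodal, stood at 0, 0.23 and 0 in the anterior pieces, against 6.01, 4.47 and 2.65 in the posterior pieces. Nodal was at 0, 0 and 0.32 in the anterior pieces, against 5.73, 3.91 and 4.77 in the posterior pieces. The other 6 of the 16 genes were higher on average in the anterior pieces. They were Shisa2, Frzb, Sfrp5, Foxa2, Hesx1 and Gata6, with mean differences of -2.50, -2.02, -1.83, -1.42, -1.33 and -0.92. For Shisa2, Frzb, Foxa2 and Gata6 the direction was not the same in every embryo.

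Both lists of the posterior end had more genes higher in the posterior than in the anterior pieces. In the primitive streak list 19 of 21 genes were higher on average in the posterior pieces, with a median of 2.54 (2.05 centred), and in 13 every posterior value lay above the anterior ones, in 0 below (10 and 0 centred). In the caudal epiblast and neuromesodermal list 13 of 14 were higher, with a median of 2.16 (1.68 centred). In 7 of them every posterior value lay above the anterior ones, in 0 below (5 and 0 centred). Over all genes these shares were 12.3% above and 3.77% below, and 7.14% and 7.9% centred. Wnt3, a ligand that induces the streak, was at 0, 2.13 and 0.92 in the anterior pieces of A, B and C, against 6.84, 5.76 and 6.15 in their posterior pieces. Wnt8a, a WNT ligand of the posterior epiblast, was at 0 in the anterior pieces and at 3.74, 2.43 and 4.65 in the posterior ones. In embryo C the streak list kept a median of 3.30, in the same pieces in which T ran the other way.

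Relatives of the 3 genes were mostly low. Of 14 homeodomain and POU relatives looked for, 7 were in the table and 3 were tested, Pou5f1, Pou2f1 and Pou2f2. Pou5f1 (Oct4), the core pluripotency factor with which Otx2 is known to act, was at 1.66, 0.94 and 3.64 in the anterior pieces of A, B and C, against 5.11, 2.56 and 4.37 in their posterior pieces. Pou2f1 (Oct1), a widely used POU factor, was at 0.34, 2.50 and 4.37 and at 3.04, 2.77 and 2.88, lowest in anterior A and highest in anterior C as Otx2 was. Pou2f2 (Oct2) was above 0 in posterior C alone, at 3.02. Pou3f3 (Brn1), the other POU class III gene in the table, was above 0 in anterior C alone, at 2.36. Gsc, an organiser homeobox gene, was above 0 in posterior A alone, at 1.83. Pou4f1 (Brn3a) reached 1.44 in posterior A and at most 0.25 elsewhere, and Pou6f1 reached 0.80 to 1.48 in the posterior and at most 0.08 in the anterior pieces. Otx1, Crx, Gbx1, Pou3f2, Pou3f4, Pou2f3 and Pou4f2 are not analysed here.

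The genes whose levels ran most like each of the 3 over the 6 libraries were picked by Pearson's r among 6905 genes with an SD of at least 1, and are a description with no p. With 6 points and so many genes close matches are common: 228 genes had r above 0.9 with Otx2, 104 with Pou3f1 and 209 with Gbx2. For Otx2 the first 5 were Shisa4 (r = 0.99), Syce2, Gap43, Coq5 and Cd24a. Gap43, a growth cone protein, was at 0.39, 4.85 and 7.63 in the anterior pieces of A, B and C, against 4.92, 4.51 and 3.67 in their posterior pieces. Cd24a, a surface glycoprotein of epithelial and neural progenitors, was higher throughout, at 6.04, 8.28 and 9.03 and at 8.53, 7.96 and 7.84.

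For Pou3f1 the first 5 were Sort1 (r = 0.99), Sall1, Gatsl3, Nhp2 and Cib2. Sall1, a zinc finger factor, was at 3.57, 4.58 and 5.86 in the anterior pieces of A, B and C, against 6.49, 5.16 and 4.21 in their posterior pieces. Nhp2, a protein of small nucleolar ribonucleoproteins, was at 4.98, 6.21 and 7.54 and at 8.44, 6.56 and 5.68. For Gbx2 they were Dnajc4 (r = 0.999), Lefty2, Gemin4, Irgm1 and Ppp4c. Lefty2, an inhibitor of Nodal made in the streak, was at 0.20, 0 and 0.28 in the anterior pieces, against 3.80, 3.57 and 3.60 in the posterior pieces. These names depend on the measure: with Spearman's rho 0, 0 and 1 of the 5 genes were again among the first 5 for Otx2, Pou3f1 and Gbx2, and with centred libraries 3, 2 and 3.

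**Figure D4:**
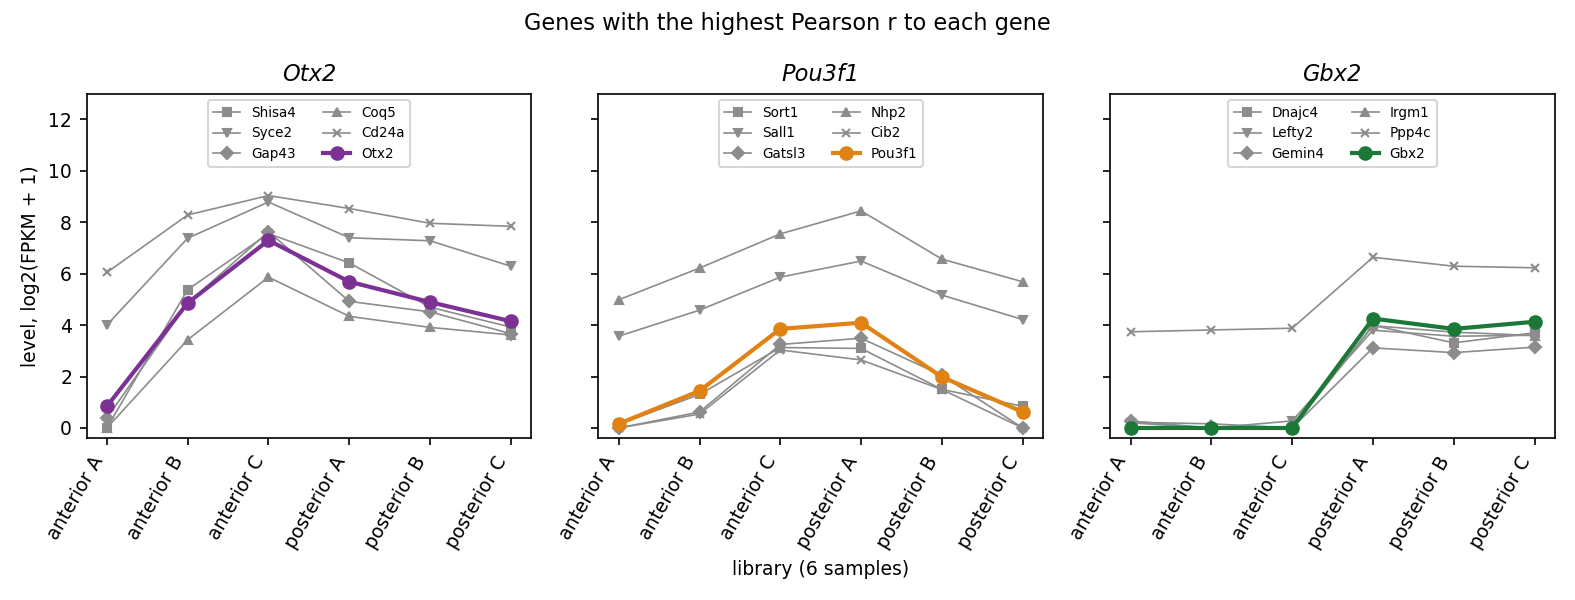
Level in log2(FPKM + 1) over the 6 libraries of Otx2, Pou3f1 and Gbx2 (coloured) and of the 5 genes with the highest Pearson's r to each (grey); lines only join the points of a gene. The Otx2 panel peaks at anterior C (7.29), the Pou3f1 panel at anterior C and posterior A (3.85 and 4.09), and the Gbx2 panel is a step from the anterior to the posterior libraries.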

How the data were processed

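RNA of 3 anterior and 3 posterior pieces was sequenced. Per the labels' protocols, mapping was to an Ensembl mouse genome and quantification by HTSeq-count; per the submitters' processing notes TopHat2 2.0.4, Cufflinks 2.0.2 and build mm10 were named; the tool behind the table is not stated there. The authors deposited 1 table of log2 values, log2(FPKM + 1), for 12826 genes and 6 libraries, and that scale was read from the values themselves. A fold or difference on it understates changes of low genes.

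The fit kept the 10914 genes whose mean reached 1 FPKM. Posterior minus anterior differences were fitted with limma 3.58.1 in R 4.3.3, with a mean-variance trend and the embryo as a block, two-sided, with Benjamini-Hochberg adjustment over all genes; residual degrees of freedom were 2 and prior ones 7.5. The pieces are paired because they come from 1 individual; the correlation of their deviations from the means of their domains was -0.07, 0.04 and -0.03 in A, B and C. Smallest whole reads were recovered from the steps of FPKM values (relative depth from 1189 genes; largest deviation for the 3 genes 0.00125 reads, tolerance 0.01), so totals are unknown. Intervals are exact Poisson, 95%. The fit was tested on simulated data with noise set smaller than in these libraries, so that test does not speak to its power here.

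The 3 genes and the 12 gene lists were chosen with earlier results of these data known. Named are the 3 genes, the 5 genes most like each by Pearson's r, up to 3 genes per list with the smallest unadjusted p, the relatives, and T. The endoderm factors Gata4 and Sox17, the carriers Ttr and Rbp4, and Slc16a1 and Elf5 were named after their values were seen. The same holds for Sall4, Dlx3, Gata3, Foxa2, Sfrp5, Hesx1, Shisa2, Gata6 and Frzb. Alternatives were other pseudocounts, scalings and filters, no trend, no block, and leaving out each embryo or, added after seeing the data, anterior A alone for the differences of the 3 genes. Differences without anterior A alone are unpaired, since posterior A then has no partner.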

Additional observations from a re-analysis of the deposited data

How the results depend on the processing

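The count of genes past the adjusted threshold was 0 under every alternative run, and also 0 for the listed genes. At an unadjusted p under 0.05 the counts moved: from 790 posterior and 86 anterior to 429 and 297 with centred libraries and to 513 and 315 after quantile normalization (90.2% posterior against 59.1% and 62.0%). Genes whose posterior values all lay above the anterior ones numbered 1338, and 411 lay below; centred these were 779 and 862, and after quantile normalization 787 and 939. Leaving out 1 embryo at a time gave 348 to 898 posterior and 36 to 140 anterior genes. Without the replicate block, the unpaired fit gave 912 and 119, and without anterior A alone as well it gave 617 and 191. The mean Otx2 difference, 0.58, ranged from -1.55 (without embryo A) to 2.44 (without C) over the embryos left out in turn. Unpaired and without anterior A alone, it was -1.17. The mean Pou3f1 difference, 0.41, ranged from -1.34 (without A) to 2.23 (without C), and was -0.074 with centred libraries. Unpaired and without anterior A alone, it was -0.41. Gbx2 kept its direction throughout, at 7.32 and 5.03 with pseudocounts of 0.1 and 0.5, where the listed 0 values set the size, and at 3.59 and 3.62 with centred and quantile-normalized libraries, and 3.99 to 4.19 leaving out each embryo. Of 144 recomputed list medians 14 changed sign, all in the anterior neural, anterior visceral endoderm, visceral endoderm, XEN and trophoblast lists. Depth limits Pou3f1 in anterior A (1 read) and posterior C (7 reads). Each piece of an embryo gave 1 library, so the spread within a piece was not measured.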
